A study of Mus musculus with 64 samples.

Results

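Genes of antigen presentation were examined in total RNA sequenced from mouse microglia. The set held 10 genes of the 49671 in the count table. They were taken from the table by symbol. The class I genes were H2-K1 and H2-D1, the classical heavy chains, B2m, the beta-2-microglobulin light chain that pairs with them, Tap1, a subunit of the peptide transporter of the endoplasmic reticulum, and Tapbp, the tapasin that holds empty class I molecules at that transporter. The class II genes were H2-Aa and H2-Ab1, the alpha and beta chains of I-A, H2-Eb1, the beta chain of I-E, Cd74, the invariant chain that escorts class II molecules through the cell, and Ciita, the transcriptional coactivator of class II genes.

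The 64 libraries came from microglia of the hippocampus and the frontal cortex of male C57BL/6 mice (C57BL6/N in the methods) aged 9 to 10 weeks. Labels gave each library a region, a phase (Day or Night) and a condition (Soci, Cogn, Ctr0 or Ctr1), which made 16 groups of 4 libraries. All mice lived under a reversed light-dark cycle, no allele or agent is named for any group, and the labels do not say what the 4 condition names stand for. Cells were taken at zeitgeber times 4 and 16, in the light and the dark phase by the methods, while the labels do not tie Day or Night to either time. Cells were dissociated mechanically in the cold and held on magnetic beads against CD11b, a surface protein that macrophages of the brain borders, monocytes and some dendritic cells carry as well as microglia. The labels do not say whether the 4 libraries of a group came from separate animals, so p-values measure the spread between these libraries, which may be technical in part.

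Nearly every nucleated cell shows peptides from its own cytosol on class I molecules, which CD8 T cells read. Class II molecules carry peptides from material the cell has taken up and are read by CD4 T cells, and their expression is largely limited to dendritic cells, B cells and activated macrophages. Resting microglia are known for low class II, which rises in ageing, infection and demyelination, whereas macrophages of the meninges, the vessels and the choroid plexus include cells with high class II. In the steady state class I and class II genes share a promoter module bound by RFX, CREB and NF-Y, on which the coactivators NLRC5 (class I) and CIITA (class II) assemble.

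Promoter sequence is shown for the members in which this shared module could be read. The levels of H2-K1 with H2-D1, and of the class II chains with each other, moved together across libraries. Whether this module had a part in that was not tested. RefSeq windows of the build GRCm38.p6, from 250 bases before to 50 after each gene's start, matched 7 of the 10 members, and H2-Ab1, Cd74 and Ciita had no window. The letters TGANG are the core of the CREB part of the X box, and ATTGG is the core of the Y box bound by NF-Y. TGANG followed after 18 to 25 bases by ATTGG stood on the gene's strand in the windows of 5 members. The same pair stood on that strand in 1.12% of all 32817 windows and on either strand in 2.07%. The spacing was set after the sequences of the members were seen, so these shares are no test of the members. Each line below runs 5′ to 3′ on the strand of the gene, and its capitals mark both cores and, in H2-K1, H2-D1 and B2m, an interferon response core, read as GAANNGAAA, or the same with 1 more A before the NN, on either strand.
H2-K1: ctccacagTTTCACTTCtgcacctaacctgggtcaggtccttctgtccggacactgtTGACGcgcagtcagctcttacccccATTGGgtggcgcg
H2-D1: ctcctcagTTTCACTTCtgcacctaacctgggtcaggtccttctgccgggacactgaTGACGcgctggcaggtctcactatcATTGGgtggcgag
B2m: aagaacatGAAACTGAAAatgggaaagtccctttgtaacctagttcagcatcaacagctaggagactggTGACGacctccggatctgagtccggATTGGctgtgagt
H2-Aa: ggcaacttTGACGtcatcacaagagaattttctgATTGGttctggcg
H2-Eb1: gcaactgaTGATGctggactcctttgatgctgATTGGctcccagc
The stretches lie at chr17:34000351-34000445 for H2-K1 (minus strand), chr17:35262936-35263030 for H2-D1 (plus), chr2:122147540-122147646 for B2m (plus), chr17:34287859-34287905 for H2-Aa (minus) and chr17:34305776-34305820 for H2-Eb1 (plus). In H2-K1, H2-D1 and B2m 20 bases separated the cores, in H2-Aa 21 and in H2-Eb1 19. H2-D1 and H2-Eb1 each held 2 pairs on the gene's strand, of which the pair with spacing nearest 20 bases was taken. The windows of Tap1 and Tapbp did not hold the pair. The interferon response core was in 10.4% of all windows on either strand and, of the 7 members, in H2-K1, H2-D1 and B2m. A match describes letters in a window and is not evidence that a factor was bound there.

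Library totals ran from 10156071 to 84472229 counts, with a median of 15927536. In 3 libraries the total was more than 2 times the median of the region. The 4 genes that each held over 1% of the counts together took 46.0% of them. Microglial markers were abundant throughout, with the 10 markers, P2ry12 and Tmem119 among them, summing to 12201 to 25292 CPM. CPM, the counts-per-million unit, is the count over the library size after scaling by TMM (trimmed mean of M values), and a floor of 3 counts in a library corresponded to 0.0310 to 0.313 CPM. The B cell markers Cd79a, Ms4a1 and Pax5 never exceeded 10 counts and the T cell markers Cd3e, Cd3d, Cd3g and Cd8a never exceeded 9. Of the same lists, Cd79b, Cd22 and Ighm of B cells and the T cell marker Cd4 had counts in every library, with highest counts of 626, 408, 11372 and 191.

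All 10 members passed the count filter in every comparison. Ciita had the lowest counts, 17 to 345 per library with a median of 56.5, and no other member fell under 162 counts. Per kilobase of exon, B2m was highest with 353 ± 73.9 CPM per kb (SD, n = 64). H2-D1 (43.8), Cd74 (41.0) and Tapbp (37.9 CPM per kb) followed, and H2-D1 was above Cd74 in 39 libraries of 64 and Cd74 above Tapbp in 33. The place of Cd74 turned with the set. In the hippocampus at night its mean was 25.7 CPM per kb, under H2-D1 (40.2), Tapbp (36.9) and H2-K1 (28.1), and in the frontal cortex by day it was 52.1, above H2-D1 (48.5) and Tapbp (40.6). Next came H2-K1 (30.2), H2-Eb1 (15.5), H2-Ab1 (11.4), H2-Aa (8.51), Tap1 (5.35) and Ciita (0.394 CPM per kb). H2-Aa stood above Tap1 in 45 of 64 libraries, but its mean in the hippocampus at night (4.80) was under that of Tap1 (5.39). Tapbp was above H2-K1 in 60, and every other neighbouring pair kept its order in all 64. The order depends on the length of all annotated exons, 3798 bases for H2-Aa, 2568 for H2-Ab1 and 1944 for H2-Eb1. Undivided, their means in the frontal cortex were 40.2, 34.9 and 36.5 CPM and in the hippocampus 24.5, 23.8 and 23.9 CPM. Some counts are uncertain. Of 50-base windows of the exons, 9.63% in H2-K1 and 12.8% in H2-D1 also occurred in other genes, mostly H2-Q10 and H2-Q1, while of 150-base windows, the length of the reads, 0% and 1.35% did. Exons of Tapbp overlap Zbtb22 on the same strand, and those of Tap1, Tapbp and Ciita overlap Psmb9, Gm19412 and Dexi on the other strand.

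**Figure D1:**
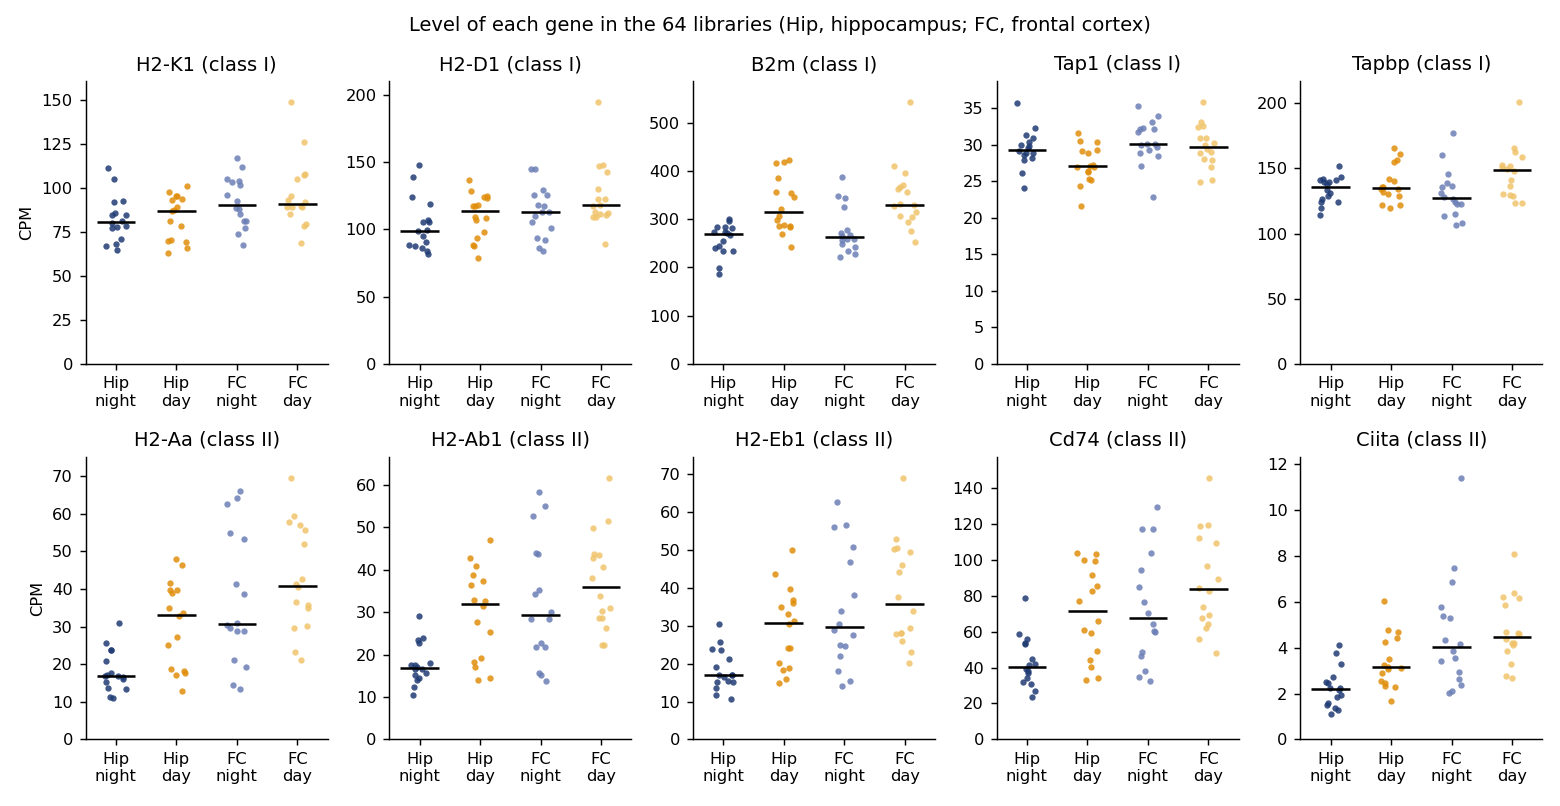
CPM (y axis, from 0) of the 10 members in each of the 64 libraries, with 16 libraries for each region and phase and a line at each median. Class I genes lie in bands that overlap across all 4 sets, while the class II genes run lowest in the hippocampus at night, with medians from 2.20 CPM (Ciita) to 40.4 CPM (Cd74).

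Class II genes varied far more among libraries than class I genes. The coefficient of variation over the 64 libraries was 43.0% to 49.5% for the class II members and 10.1% to 20.96% for the class I members. Between the lowest and the highest of the 16 group means the class II genes spanned 3.10-fold (H2-Ab1) to 3.98-fold (Ciita) and the class I genes 1.19-fold (Tap1) to 1.64-fold (B2m). Hippocampus Night Soci was the lowest group and Frontal cortex Day Soci the highest for H2-Aa, H2-Ab1, H2-Eb1 and Cd74. For Ciita these were Hippocampus Night Ctr1 (1.66 CPM) and Frontal cortex Night Ctr0 (6.60 CPM).

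Day was compared with night in the hippocampus first. All 5 class II genes were higher by day, against 23.4% of the 15527 genes tested that were called higher by day and 42.2% called in either direction, and in class I B2m alone rose. A gene is called at an adjusted p under 0.05 in edgeR's quasi-likelihood F test. The 5 class II genes had a median log2 change of 0.74 and the 5 class I genes of 0.08, beside 0.02 over all genes tested. With scaling by library totals alone the median of all genes moved to -0.14, and 262 genes were called higher and 4031 lower in place of 3637 and 2913.

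Cd74, the most abundant class II member, ran from 23.9 to 78.9 CPM with a median of 40.4 in the 16 night libraries and from 32.8 to 104 CPM with a median of 71.5 in the 16 day libraries. Of the day libraries 7 lay above the highest night library and 14 above the night median, so the phases overlapped in the lower part of the range. Its log2 change was 0.74 ± 0.17 (SE, adjusted p = 6.88e-04). In RNA of whole preparations, fewer cells of a type and less RNA per cell cannot be told apart.

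H2-Aa ran from 11.1 to 31.1 CPM (median 16.9) at night and from 12.8 to 47.9 CPM (median 33.2) by day. Its partner chain H2-Ab1 ran from 10.5 to 29.0 CPM (median 16.8) at night and from 14.1 to 47.0 CPM (median 32.03) by day. For each of these chains 9 of 16 day libraries exceeded every night library, and all 16 night libraries lay under the day median. The log2 changes were 0.79 ± 0.17 for H2-Aa (adjusted p = 3.12e-04) and 0.77 ± 0.16 for H2-Ab1 (adjusted p = 1.97e-04).

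H2-Eb1 ran from 10.6 to 30.6 CPM (median 16.9) at night and from 15.0 to 50.1 CPM (median 30.9) by day, with a log2 change of 0.72 ± 0.16 (adjusted p = 4.36e-04). I-E needs an alpha chain to reach the surface, and the gene for that chain is defective in C57BL/6 mice. That gene, H2-Ea-ps, had 0 counts in all 64 libraries. Ciita ran from 1.13 to 4.13 CPM (median 2.20) at night and from 1.68 to 6.02 CPM (median 3.14) by day. In 15 of 16 day libraries Ciita was above the night median, and its log2 change of 0.63 ± 0.18 (adjusted p = 0.00403) lost the call with library totals alone (0.48, adjusted p = 0.0610) and without replicate 4 (0.44, adjusted p = 0.111).

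In class I, B2m ran from 187 to 301 CPM (median 270) at night and from 243 to 424 CPM (median 314) by day. By day 9 of 16 libraries lay above every night library. The log2 change was 0.38 ± 0.08 (adjusted p = 1.25e-04), and with library totals alone it was 0.22, which was not called (adjusted p = 0.123). The heavy chains differed by 0.05 ± 0.07 (H2-K1, adjusted p = 0.637) and 0.12 ± 0.08 (H2-D1, adjusted p = 0.257) on the log2 scale, and no day library of either lay above the highest night library. Tapbp differed by 0.08 ± 0.05 (adjusted p = 0.169) and Tap1 by -0.08 ± 0.05 (adjusted p = 0.169). None of these 4 passed the test, although Tap1 was called lower with DESeq2 (-0.11, adjusted p = 0.0464) and with a stricter count filter (-0.11, adjusted p = 0.0494).

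Markers of border macrophages moved with the class II genes. All 10 of 10 were higher by day in the hippocampus, including the scavenger receptors Cd163 (log2 change 1.33) and Stab1 (0.36), the mannose receptor Mrc1 (0.89) and the hyaluronan receptor Lyve1 (1.96). Their summed level ran from 700 to 1116 CPM at night and from 942 to 1547 CPM by day, and none was at 0. Stab1, which microglia also express, held most of this sum, and the other 9 markers summed to 109 to 239 CPM at night and 214 to 448 CPM by day. Of 10 microglial markers 8 were higher by day too, and over all genes tested 23.4% were called higher. With the mean log2 level of the 10 border macrophage markers as a term in the fit, the class II genes changed by -0.26 ± 0.18 (Cd74), -0.16 ± 0.19 (H2-Aa), -0.16 ± 0.17 (H2-Ab1), -0.18 ± 0.18 (H2-Eb1) and -0.12 ± 0.22 (Ciita), B2m by 0.10 ± 0.10, and none of the 10 members was called. Over all genes the same term cut the calls from 6550 to 964. The markers in the term were themselves higher by day, so it overlaps with phase, and this fit cannot separate them. In the other direction, 8 of 8 choroid plexus markers were lower by day (median log2 change -2.59). Lower too were 5 of 6 astrocyte, 5 of 6 oligodendrocyte and 4 of 7 endothelial markers, while the remaining astrocyte marker was higher. Over all genes tested 2913 of 15527 were called lower. The part of these cell types in the class II values was not tested.

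Markers of dendritic cells and B cells, which carry class II, were at lower levels. Of 8 dendritic cell markers 5 passed the count filter and Cd209a, a lectin of monocyte-derived dendritic cells and some border macrophages, was called, higher by 1.00 by day. The dendritic list summed to 21.1 to 34.1 CPM at night and 26.2 to 38.2 CPM by day, and Xcr1 and Clec9a, defining for cross-presenting dendritic cells, were at 0 in 22 and 5 libraries. The B cell list summed to 93.7 to 142 CPM at night and 84.8 to 123 CPM by day. All but 6.43 to 12.4 CPM of this was Ighm. Of 3 tested B cell markers 2 were called lower by day and 0 higher. Of 4 tested markers of neutrophils and monocytes 1 was called higher by day and 0 lower, with a median log2 change of -0.57. With the mean log2 level of 8 dendritic and B cell markers as a term, the 5 class II genes and B2m kept their calls. Over all genes this term left 6543 calls in place of 6550. It pools 2 lists whose medians moved in opposite directions by day (log2 0.19 and -0.18). The fit therefore cannot show the part of either cell type in the class II values.

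The same comparison was made in the frontal cortex. B2m was again the only class I gene called, and no class II gene was called, against 20.6% of the 14975 genes tested called higher by day and 41.8% in either direction. With library totals alone 653 genes were called higher and 3412 lower in place of 3083 and 3183. The median log2 change was 0.18 for the class II members and 0.14 for the class I members, beside -0.02 over all genes tested. No class II gene of the 5 had an unadjusted p under 0.05, and DESeq2 called none of them.

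Cd74 in the frontal cortex ran from 32.6 to 130 CPM (median 67.4) at night and from 48.0 to 146 CPM (median 83.7) by day. H2-Aa ran from 13.5 to 66.0 CPM (median 30.6) at night and from 21.1 to 69.6 CPM (median 40.9) by day. For each of these genes a single day library exceeded every night library, and the night range alone covered most of the day values. The log2 changes were 0.23 ± 0.18 for Cd74 (adjusted p = 0.317), 0.19 ± 0.20 for H2-Aa (adjusted p = 0.485), 0.18 ± 0.19 for H2-Ab1 (adjusted p = 0.465), 0.15 ± 0.20 for H2-Eb1 (adjusted p = 0.573) and 0.01 ± 0.20 for Ciita (adjusted p = 0.964).

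B2m ran from 221 to 389 CPM (median 263) at night and from 252 to 544 CPM (median 331) by day. In 15 of 16 day libraries it lay above the night median. The log2 change was 0.31 ± 0.09 (adjusted p = 0.00441), but it was not called with library totals alone (0.24, adjusted p = 0.0646) or without replicate 2 (0.22, adjusted p = 0.0695). Tapbp had a log2 change of 0.16 ± 0.07 with an adjusted p of 0.0502, and it was called with DESeq2 (0.17, adjusted p = 0.0316). H2-K1 (0.06 ± 0.09), H2-D1 (0.14 ± 0.09) and Tap1 (-0.05 ± 0.05) were not called.

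Of 10 border macrophage markers in the frontal cortex 7 were higher by day, with Lyve1 at 2.00 and Cd163 at 1.17 on the log2 scale. The sum of the 10 ran from 742 to 1264 CPM at night and from 991 to 1625 CPM by day. Of 10 microglial markers 5 were higher by day too, and over all genes tested 20.6% were called higher. Lower by day were 5 of 6 astrocyte, 5 of 6 neuronal and 3 of 6 oligodendrocyte markers, against 3183 of the 14975 genes tested. With the mean log2 level of the border macrophage markers as a term in the fit, 2222 genes were called in place of 6266, of which 1156 were lower by day. All 5 class II genes were among these, with changes of -0.49 ± 0.16 (Cd74, adjusted p = 0.0336) to -0.65 ± 0.19 (Ciita, adjusted p = 0.0170). B2m was not called (0.19 ± 0.12). Since 7 of the 10 markers were themselves higher by day, the term overlaps with phase. The fit therefore cannot show whether class II genes were lower by day at equal macrophage content, and without the term none was called.

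**Figure D2:**
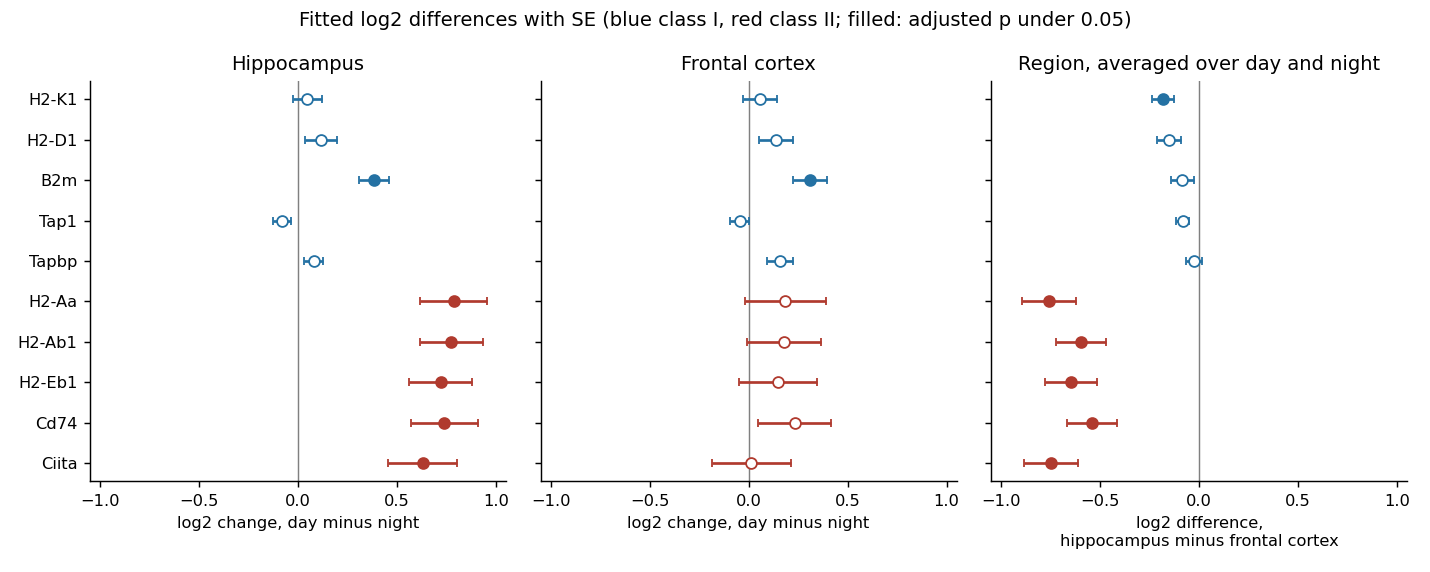
Log2 differences of the 10 members with their SE (x axes) for day minus night in the hippocampus (left), in the frontal cortex (middle) and for hippocampus minus frontal cortex over both phases (right), with filled points for calls. The class II points sit between 0.63 and 0.79 by day in the hippocampus, between 0.01 and 0.23 in the frontal cortex and between -0.76 and -0.54 for the region, while B2m, filled left and middle, was not called in either region with library totals alone.

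Whether the day-night change itself differed between the regions was tested over all 64 libraries. No member was called, against 1.19% of the 16069 genes tested (191 genes in edgeR and 262 in DESeq2, with 1587 at an unadjusted p under 0.05). The change was larger in the hippocampus by 0.56 ± 0.27 for H2-Aa, 0.55 ± 0.25 for H2-Ab1, 0.53 ± 0.26 for H2-Eb1, 0.47 ± 0.26 for Cd74 and 0.57 ± 0.27 for Ciita on the log2 scale. Of these 5, 4 had an unadjusted p under 0.05, against 9.88% of all genes. The adjusted p-values of these differences ran from 0.413 to 0.575, and DESeq2 called no member. The hippocampal rise of class II was therefore not shown to be particular to that region. For the class I genes the difference ran from -0.12 ± 0.08 (Tapbp) to 0.03 ± 0.12 (B2m).

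Regions were compared over day and night together. All 5 class II genes were lower in the hippocampus than in the frontal cortex, against 6.17% of the 16069 genes tested called lower in the hippocampus and 16.6% called in either direction. In class I the heavy chain H2-K1 alone was called. The median log2 difference was -0.65 for class II and -0.09 for class I, beside 0.00 over all genes tested, or -0.11 over all genes with library totals alone, where 854 genes were called higher in the hippocampus and 1685 lower in place of 1675 and 992. Each of these 5 class II calls held under all 15 alternatives, with the exception of Cd74 with the dendritic and B cell markers as a term (-0.21 ± 0.09, adjusted p = 0.0998).

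Ciita ran from 1.13 to 6.02 CPM (median 2.52) in the 32 hippocampal libraries and from 2.04 to 11.4 CPM (median 4.27) in the 32 of the frontal cortex. H2-Aa ran from 11.1 to 47.9 CPM (median 19.8) and from 13.5 to 69.6 CPM (median 37.6). Cd74 ran from 23.9 to 104 CPM (median 51.4) and from 32.6 to 146 CPM (median 75.2). The regions overlapped widely, yet 28 of 32 hippocampal libraries for Ciita, 26 for H2-Aa and 23 for Cd74 lay under the median of the frontal cortex. The log2 differences, hippocampus minus frontal cortex, were -0.75 ± 0.14 for Ciita (adjusted p = 2.98e-05), -0.76 ± 0.14 for H2-Aa (adjusted p = 2.56e-05), -0.60 ± 0.13 for H2-Ab1 (adjusted p = 3.23e-04), -0.65 ± 0.13 for H2-Eb1 (adjusted p = 1.71e-04) and -0.54 ± 0.13 for Cd74 (adjusted p = 0.00145).

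H2-K1 ran from 62.7 to 111 CPM (median 82.8) in the hippocampus and from 67.5 to 149 CPM (median 90.7) in the frontal cortex. Its log2 difference was -0.18 ± 0.06 (adjusted p = 0.0193). The call was lost in turn without replicate 2 (adjusted p = 0.0556), replicate 3 (0.181) and replicate 4 (0.0506). H2-D1 (-0.15 ± 0.06, adjusted p = 0.0691), Tap1 (-0.08 ± 0.03, adjusted p = 0.0756), B2m (-0.09 ± 0.06, adjusted p = 0.325) and Tapbp (-0.03 ± 0.04, adjusted p = 0.690) did not pass the test. H2-D1 was called with the replicate block within phase and condition (-0.15 ± 0.05, adjusted p = 0.0344), with library totals alone (adjusted p = 0.00490), with genes over 1% of counts left out (0.0294) and without replicate 1 (0.0477). Tap1 was called under 6 of 15 alternatives, DESeq2 among them (adjusted p = 0.0472).

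Other lists also moved with the region. Of the border macrophage markers 4 of 10 were lower in the hippocampus, among them Clec10a (-0.46) and Mrc1 (-0.36), as were 3 of 10 microglial markers. Of 5 tested markers of neutrophils and monocytes 4 were lower, with the monocyte receptor Ccr2 at -0.68. Among 5 tested dendritic cell markers only Cd209a was called (-0.54). Over all genes tested 6.17% were called lower. All 8 of 8 choroid plexus markers were higher in the hippocampus, by a median of 3.01 on the log2 scale, with sums of 1.89 to 2945 CPM there and 6.58 to 457 CPM in the frontal cortex. With the border macrophage markers as a term the 5 class II genes kept their region calls, and H2-K1 did not (-0.12 ± 0.06, adjusted p = 0.179), nor with the dendritic and B cell markers (-0.07 ± 0.05, adjusted p = 0.372).

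Conditions were compared within each region, averaged over the phases. No gene of the table was called in the hippocampus (0% of 16826, with 1090 at an unadjusted p under 0.05 and 6 called by DESeq2) or in the frontal cortex (0% of 16238, with 1094 at an unadjusted p under 0.05 and 1 called by DESeq2). In the hippocampus 3862 genes were called with library totals alone and 328 without replicate 1, with none of the 10 members among them. There all 5 class II genes and no class I gene had an unadjusted p under 0.05, from 0.0127 for Ciita to 0.0422 for Cd74, against 6.48% of all genes, and their adjusted p was 0.668. In the frontal cortex only Ciita did (unadjusted p = 0.0264, adjusted p = 0.720).

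Hippocampal Cd74 ran from 23.9 to 85.2 CPM (median 35.5) in the 8 Soci libraries, from 31.9 to 103 CPM (median 56.3) in Cogn, from 31.0 to 104 CPM (median 70.0) in Ctr0 and from 34.3 to 99.5 CPM (median 46.8) in Ctr1. All 4 ranges overlapped over most of their length, with Ctr0 highest and Soci lowest by median. Medians of Cd74 in the frontal cortex were 63.0 CPM in Soci, 66.0 in Cogn, 86.0 in Ctr0 and 79.4 in Ctr1, each over 8 libraries. Border macrophage sums in the hippocampus had medians from 955 (Ctr1) to 1062 CPM (Ctr0).

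**Figure D3:**
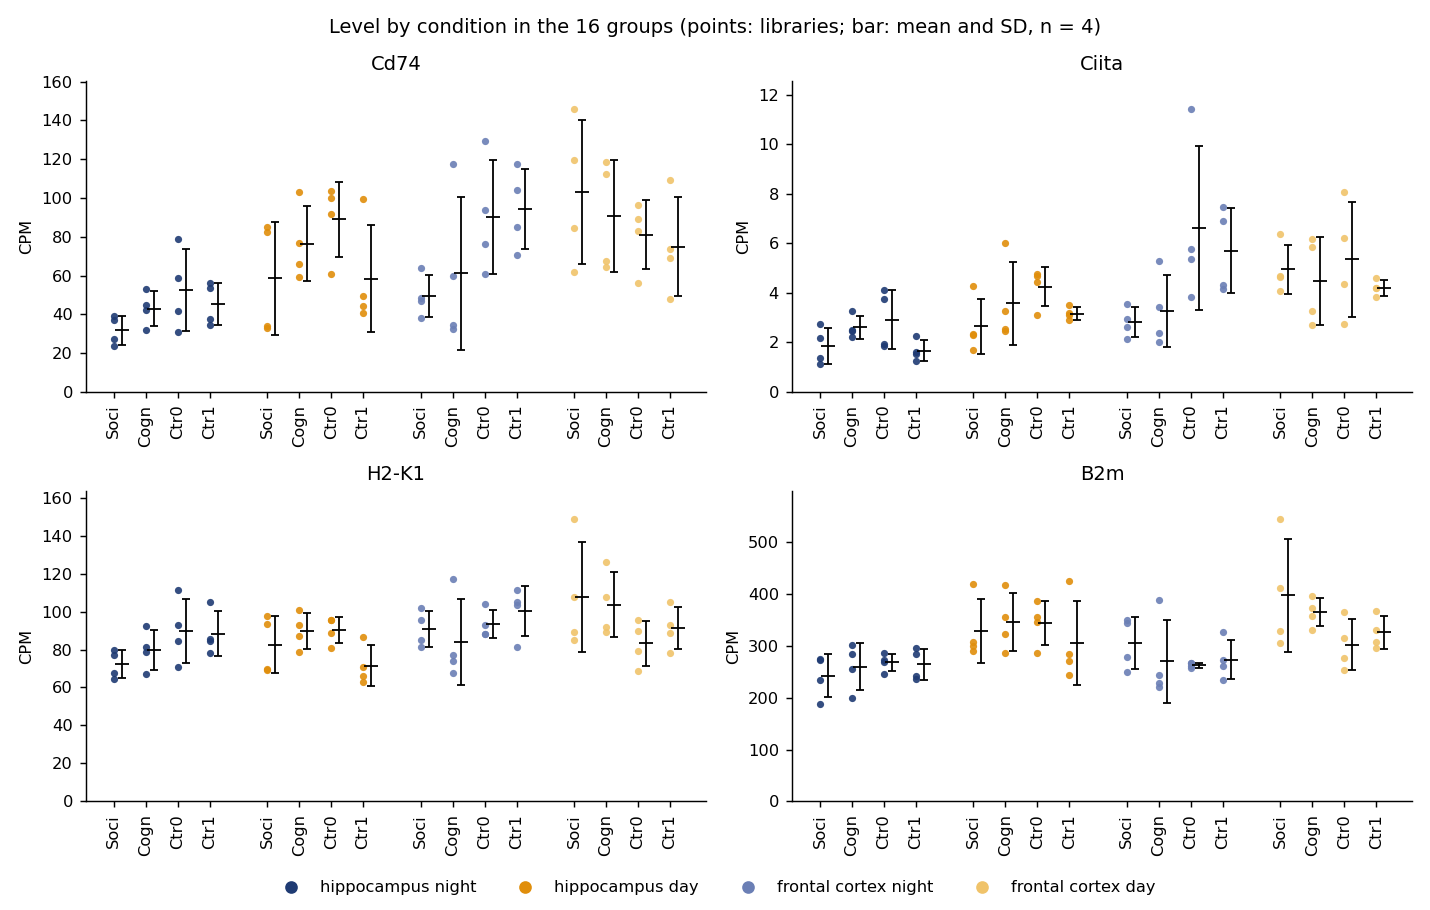
CPM (y axes, from 0) of Cd74, Ciita, H2-K1 and B2m in the 16 groups, with a point per library and the mean and SD of 4 libraries beside them. Group means of Cd74 run from 31.8 CPM (Hippocampus Night Soci) to 103 CPM (Frontal cortex Day Soci), and in the frontal cortex the night points of Ctr0 and Ctr1 reach as high as most day points.

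Whether the day-night change differed among the conditions was tested in each region. The 10 members were not called in the hippocampus (0% of 16826 genes called, with 695 at an unadjusted p under 0.05 and 12 called by DESeq2) or in the frontal cortex (0.00616% of 16238, which is 1 gene, with 603 at an unadjusted p under 0.05 and 9 called by DESeq2). Of the 5 class II genes in the frontal cortex 4 had an unadjusted p under 0.05, from 0.0223 for Cd74 to 0.0378 for H2-Eb1, against 3.71% of all genes, and their adjusted p was 1.00. In the hippocampus none of the 10 did.

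The level of Cd74 in each library of the frontal cortex shows the values behind that test. At night the 4 Soci libraries had 38.3, 46.7, 48.7 and 64.2 CPM and by day 61.9, 84.6, 120 and 146 CPM. In Ctr1 the night libraries had 70.6, 85.05, 104 and 117 CPM and the day libraries 48.0, 69.0, 73.8 and 109 CPM. So in Soci a single night library exceeded the lowest day library, while in Ctr1 the night and day libraries overlapped with the night mean above the day mean.

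In Cogn the night libraries had 32.6, 34.8, 59.9 and 117 CPM of Cd74 and the day libraries 64.4, 67.7, 112 and 119 CPM. In Ctr0 they had 60.6, 76.5, 94.1 and 130 CPM at night and 56.1, 82.8, 89.2 and 96.5 CPM by day. The fitted log2 changes of Cd74, given as values since the test among conditions was not passed, were 1.07 ± 0.34 in Soci, 0.55 ± 0.34 in Cogn, -0.18 ± 0.33 in Ctr0 and -0.32 ± 0.33 in Ctr1. H2-Aa followed with 1.03 ± 0.39, 0.53 ± 0.39, -0.27 ± 0.39 and -0.33 ± 0.39.

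In the hippocampus the fitted changes of Cd74 were 0.91 ± 0.32 in Soci, 0.85 ± 0.32 in Cogn, 0.82 ± 0.32 in Ctr0 and 0.41 ± 0.32 in Ctr1. Those of Ciita were 0.52 ± 0.32, 0.51 ± 0.30, 0.61 ± 0.31 and 0.98 ± 0.33. Every class II gene thus had a positive value in each of the 4 conditions of the hippocampus. B2m was positive in all 4 conditions of both regions, from 0.18 ± 0.17 in Ctr0 of the frontal cortex to 0.47 ± 0.16 in Soci of the hippocampus.

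The members also differed in how closely they followed each other, and the correlations that follow describe log2 CPM over the 64 libraries, which share region, phase and preparation. Between H2-Aa, H2-Ab1, H2-Eb1 and Cd74 Pearson's r was 0.98 to 0.99 over the 6 pairs, and with Ciita it was 0.82 to 0.85. With the means of the 16 groups removed these were 0.96 to 0.98 and 0.70 to 0.73. H2-K1 and H2-D1 followed each other with an r of 0.94, the other 9 class I pairs ran from -0.02 to 0.79, and the 25 pairs between the classes from 0.12 to 0.72.

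Among 10931 genes with a mean of at least 2 on the log2 CPM scale, those most like the mean of the class II members were the monocyte chemokine receptor Ccr2 (r = 0.91), the macrophage lectin Mgl2 (0.90), the NADPH oxidase subunit Cybb (0.90), F630028O10Rik (0.89) and Cd209a (0.87). With group means removed they were Cybb (0.89), Ccr2 (0.87), Lyz2, the lysozyme of myeloid cells (0.87), Mgl2 (0.84) and F630028O10Rik (0.81). The genes most like the mean of class I were Ly6e (0.88), the lysosomal protease gene Ctsb (0.83), the lysosomal membrane protein gene Lamp1 (0.82), Npc2 (0.82) and Slc25a5 (0.81), and with group means removed Ly6e (0.88), Arf1 (0.84), Lamp1 (0.83), Ctsb (0.83) and Npc2 (0.83). No gene stood among these 5 for both classes.

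**Figure D4:**
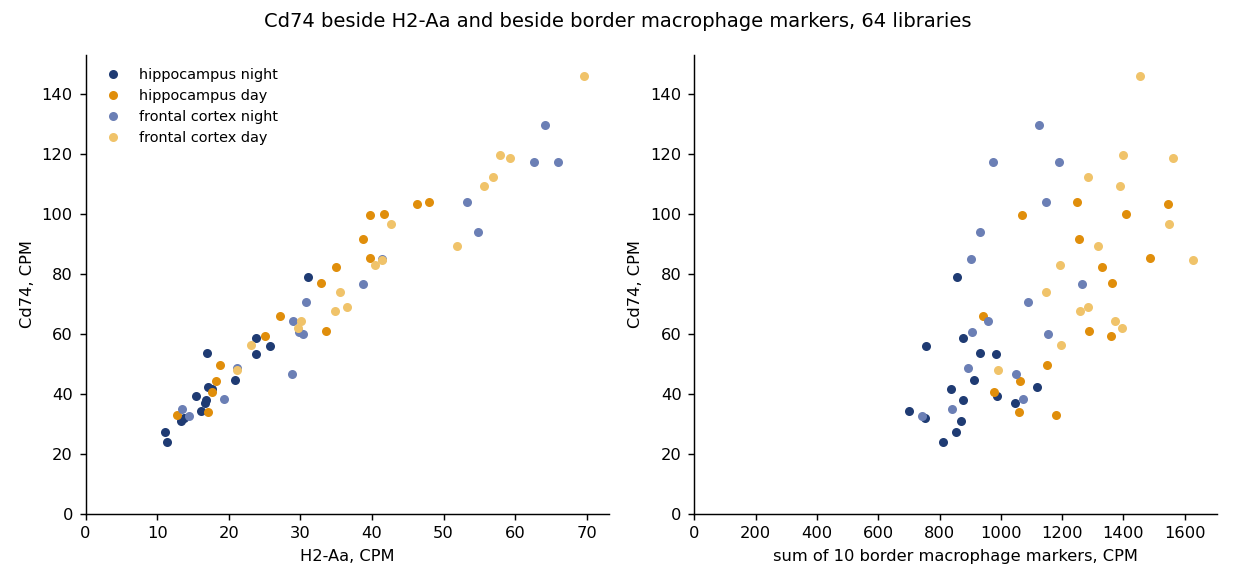
Cd74 (y axis, CPM) against H2-Aa (left) and against the sum of 10 border macrophage markers (right), most of it Stab1. Each point is a library, in the 4 sets of region and phase. Points lie along a line on the left (r = 0.98 on the log2 scale) and scatter more on the right, where r within the sets runs from 0.18 to 0.62.

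Within each set of 16 libraries Cd74 was set against 3 marker sums, which gave 12 relations. The sums add CPM, so Stab1 held most of the border macrophage sum and Ighm most of the dendritic and B cell sum. Each r with these sums rests largely on that gene and does not measure cell content. With the border macrophage sum Pearson's r was 0.18 (hippocampus night, permutation p = 0.50, adjusted 0.67), 0.56 (hippocampus day, p = 0.025, adjusted 0.075), 0.53 (frontal cortex night, p = 0.034, adjusted 0.082) and 0.62 (frontal cortex day, p = 0.010, adjusted 0.040). Spearman's rho was 0.31 (permutation p = 0.25), 0.55 (p = 0.028), 0.52 (p = 0.039) and 0.61 (p = 0.014), with adjusted values of 0.38, 0.083, 0.094 and 0.056. Without the 2 libraries farthest from the median of the sum r was 0.14, 0.58, 0.41 and 0.56.

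The frontal cortex by day was the set in which all 3 sums gave an adjusted p under 0.05 for Pearson's r. There r was 0.66 with the dendritic and B cell sum (permutation p = 0.0059, adjusted 0.035; rho 0.73, p = 0.0016, adjusted 0.020) and 0.68 with the microglial sum (permutation p = 0.0041, adjusted 0.035; rho 0.61, p = 0.014, adjusted 0.056). Without the 2 farthest libraries these were 0.59 and 0.45. The dendritic and B cell sum was mostly Ighm. In the other 3 sets neither sum passed, with r from 0.02 to 0.51 for dendritic and B cells and from 0.00 to 0.42 for microglia.

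The remaining genes of the class I pathway were 21, all tested. By day in the hippocampus 7 were higher and 4 lower, against 42.2% of all genes called and 23.4% called higher, with a median log2 change of 0.08. The 3 largest were H2-K2 (-0.44 ± 0.11, adjusted p = 0.00143) and H2-Q4 (-0.36 ± 0.09, adjusted p = 0.00172), class I genes outside the classical pair, and Erap1 (0.26 ± 0.06, adjusted p = 8.32e-04), which trims peptides. H2-K2 and H2-Q4 resemble other class I genes, so their counts are uncertain. Frontal cortex by day had 7 higher and 2 lower, against 41.8% of all genes called, led by H2-K2 (-0.70 ± 0.12, adjusted p = 3.99e-05), the tapasin-like editor Tapbpl (0.32 ± 0.08, adjusted p = 0.00141) and the immunoproteasome subunit Psmb10 (0.29 ± 0.06, adjusted p = 1.59e-04). Between regions 5 were lower in the hippocampus and none higher, against 16.6% of all genes called and 6.17% called lower, led by Nlrc5, the class I coactivator (-0.35 ± 0.11, adjusted p = 0.0181), the nonclassical H2-M3 (-0.17) and Tapbpl (-0.14).

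Of 22 further class II pathway genes 20 were tested, since H2-Ea-ps and H2-Eb2 did not pass the count filter. By day in the hippocampus 7 were higher and 1 lower, against 42.2% of all genes called, with a median log2 change of 0.12. The largest were the costimulatory receptor Cd40 (-0.66 ± 0.17, adjusted p = 0.00157), March1, the ubiquitin ligase that sends class II molecules to lysosomes (0.61 ± 0.07, adjusted p = 8.34e-08), and Creb1 of the promoter module (0.47 ± 0.05, adjusted p = 1.18e-08). Frontal cortex by day had 11 higher and 2 lower, against 41.8% of all genes called, with a median of 0.21, led by Cd40 (-0.57 ± 0.18, adjusted p = 0.0108), March1 (0.49 ± 0.07, adjusted p = 8.41e-07) and Nfya, a subunit of NF-Y (0.43 ± 0.04, adjusted p = 6.19e-09). Between regions 4 were lower in the hippocampus, against 16.6% of all genes called and 6.17% called lower, led by the costimulatory ligands Cd80 (-0.29 ± 0.05, adjusted p = 7.64e-05) and Cd86 (-0.18 ± 0.04, adjusted p = 0.00139) and by March1 (-0.14 ± 0.05, adjusted p = 0.0390). Neither list had a called gene among the conditions, for a day-night change that differed among them or for one that differed between regions.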

How the data were processed

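Total RNA of microglia was depleted of ribosomal RNA and read as single-end reads of 150 bases. Per the labels, the authors used STAR 2.7.3a on GRCm38.p5 and featureCounts of Subread 2.0.0. The deposited values are raw counts per gene, neither scaled nor divided by length. Strand and multimapping settings are not given in the sources used here.

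Symbols came from GENCODE M21, which named 49412 of 49671 genes. Counts were scaled by TMM, low counts removed with filterByExpr, and day with night (16 against 16 libraries per region), conditions, their interaction, region and region by phase were tested in R 4.3.3 with edgeR 4.0.16 (glmQLFit and glmQLFTest, quasi-likelihood), with Benjamini-Hochberg adjustment over all genes tested (threshold 0.05). Log2 CPM used a prior count of 2. SE was taken as the log2 change over the root of its F. DESeq2 1.42.0 was an alternative, beside other scalings, filters, left-out replicates and marker scores. Permutation tests of correlations were 2-sided with 100000 resamples. Fits were tested on simulated data. Counts of replicates were compared by chi-square in 96 pairs, of which the closest still gave 7.65 for each degree of freedom, so no libraries were merged. The floor of 3 counts covers counting error only. Members and lists were chosen with earlier results of these data known, and the spacing of promoter motifs after the sequences were seen. Members were all named, and of each other list up to 3 called genes of largest change. The methods describe both regions dissected from the perfused brains, so same-numbered hippocampal and cortical libraries may share an animal, which the labels do not state. Their deviations gave r from -0.74 to 0.78 over 32 pairs, 12 over 0.1. With other numbers, each value a mean over them, 7 of 32 were over 0.1. A block for the same-numbered pairs gave 3184 region calls in place of 2667. Same-numbered day and night libraries of a condition gave 4 of 16 over 0.1 in the hippocampus and 10 of 16 in the frontal cortex (median r 0.11, -0.46 to 0.74). Not every pair was over 0.1, and numbers were not taken to pair samples, but these values do not show that pairing is absent.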

Additional observations from a re-analysis of the deposited data

Results flagged for a closer look

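In 10 of 160 gene and group combinations a library lay far from the other 3 of its group, and chance alone flags about 8 (1 in 20). Of these, 4 came from replicate 3 of Hippocampus Day Ctr1, which was high in class II: Cd74 was 99.5 CPM against 40.5 to 49.5, H2-Aa 39.7 against 17.7 to 18.8, H2-Ab1 38.8 against 17.1 to 19.2 and H2-Eb1 36.1 against 18.4 to 20.2. These genes move together, so the 4 values are a single observation of that library. Replicate 2 of Hippocampus Night Ctr1 was high for H2-Aa (25.7 CPM against 16.2 to 16.9) and H2-Ab1 (24.04 against 15.3 to 16.6).

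Replicate 4 of Frontal cortex Night Cogn was high in class I, with B2m at 389 CPM against 221 to 243 and H2-D1 at 145 CPM against 84.03 to 93.9. Its Cd74 was also the highest of the group, at 117 CPM, but within the limit. Replicate 2 of Hippocampus Day Soci had 419 CPM of B2m against 289 to 307, and replicate 3 of Hippocampus Night Cogn had 24.03 CPM of Tap1 against 28.3 to 28.9.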

How the results depend on the processing

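Each member was refitted under 14 or 15 alternatives in each comparison. Of the values, 1097 kept their side of the threshold and, where the test has one, their direction. With the sign kept 16 gained a call and 13 lost it, and 34 changed sign, 5 of them with a call gained and 5 with a call lost. The counts of class I and class II calls among conditions, for the interaction with condition and between regions for the day-night change stayed at 0 under all alternatives.

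The border macrophage score changed most, and since its markers differed between day and night themselves, it overlaps with phase. With it the day-night calls in the hippocampus went from 5 class II and 1 class I genes to 0 and 0, and in the frontal cortex from 0 and 1 to 5 and 0. Signs turned in the hippocampus for H2-K1 (-0.15), H2-D1 (-0.10), Tapbp (-0.058), H2-Aa (-0.16), H2-Ab1 (-0.16), H2-Eb1 (-0.18), Cd74 (-0.26) and Ciita (-0.12), and in the frontal cortex for H2-K1 (-0.15), H2-D1 (-0.060), H2-Aa (-0.63), H2-Ab1 (-0.52), H2-Eb1 (-0.62), Cd74 (-0.49) and Ciita (-0.65). Between regions it left 0 class I calls in place of 1, as did the dendritic and B cell score, and Tapbp turned to 0.0042. With the latter score Tapbp was 0.037 and B2m 0.0075 between regions, and H2-K1 was -0.0097 for day against night in the hippocampus. The cause was not tested.

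With library totals alone the class I calls were 0 in the hippocampus, 0 in the frontal cortex and 3 between regions. The sign turned for H2-K1 (-0.092), H2-D1 (-0.023) and Tapbp (-0.078) in the hippocampus, H2-K1 (-0.0078) and Ciita (-0.023) in the frontal cortex and B2m in the change between regions (-0.023). Leaving out genes over 1% of counts gave 3 class I calls between regions and Ciita at -0.014 by day in the frontal cortex. Class I calls were 2 with the stricter filter and with DESeq2 in the hippocampus, 2 with median-of-ratios size factors, DESeq2 and condition as a term in the frontal cortex, and 2 between regions with median-of-ratios size factors, DESeq2, the replicate block within phase and condition, and without the 3 deepest libraries. The cause was not tested.

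Leaving out each replicate in turn gave 1 class I and 4 to 5 class II calls for day against night in the hippocampus, 0 to 2 and 0 in the frontal cortex, and 0 to 3 and 5 between regions. Class I calls were 0 without replicate 2 and 2 without replicate 4 by day in the frontal cortex, and between regions 3 without replicate 1 and 0 without replicate 2, 3 or 4. Signs turned within a range of -0.045 to 0.066 for H2-K1 in the hippocampus, -0.054 to 0.13 for H2-K1 and -0.041 to 0.12 for Ciita in the frontal cortex, and, in the change between regions, -0.15 to 0.088 for H2-K1, -0.15 to 0.073 for H2-D1 and -0.023 to 0.11 for B2m. With the replicate number as a block, calls were 1 class I and 5 class II in the hippocampus, 1 and 0 in the frontal cortex and 1 and 5 between regions, as without it, and 0 elsewhere. Ciita, at 17 counts in the library where its count was lowest, has the fewest counts behind its values.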

Other observations

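H2-Eb2 was at 0 in 41 of 64 libraries, with at most 7 counts in any. Per kilobase, the lysosomal protease genes of class II processing ran from 23.6 (Ctsl) to 513 (Lgmn) and 851 CPM per kb (Ctss). The class II coactivator Ciita (0.394 CPM per kb) and the class I coactivator Nlrc5 (1.41 CPM per kb) were both low.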
